A study of Mus musculus with 12 samples.

Results

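Intercalated cells are the acid-base cells of the collecting duct, and 10 genes that mark their transport machinery were followed here in mouse kidney. The genes were picked by name for what they encode: the anion exchangers Slc26a4, Slc4a1 and Slc4a9, the ammonia transporters Rhbg and Rhcg, the forkhead transcription factor Foxi1, and the proton pump subunits Atp6v1g3, Atp6v0d2, Atp6v1b1 and Atp6v0a4. Earlier results of these data were known when they were picked. All 10 were measured, each by a single probe set, among the 19938 genes of the array that have a probe set with 1 gene symbol. Whole-kidney RNA of female mice was hybridised to 12 whole-transcript arrays in 3 groups of 4. KL null mice, which lack klotho (strain label 129/SvEv/C57BL/6), received 100 µl of saline. Wild-type mice (WT, strain label C57BL/6) received either recombinant FGF23 at 500 ng per g body weight (the WT FGF23 group) or 100 µl of saline (the WT vehicle group). Injections were intraperitoneal, the kidneys were taken 1 hour later, and all mice had been on standard diet for 5 to 8 weeks. Genotype and strain label cannot be told apart, and the labels do not say whether each array stands for its own mouse, so the p-values speak only of array-to-array spread, which may be technical.

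Type A intercalated cells secrete acid: a vacuolar proton pump (V-ATPase) in the apical membrane moves protons into the urine, and the exchanger AE1 on the basolateral side returns bicarbonate to the blood. Type B cells work the other way round and secrete bicarbonate through the apical exchanger pendrin. Ammonia, the main buffer that carries acid out in the urine, crosses collecting duct cells through the Rhesus glycoproteins RhBG and RhCG, and FOXI1 is the transcription factor without which mouse kidneys do not form intercalated cells. FGF23 is a hormone from bone that acts on the kidney through FGF receptors and the co-receptor klotho.

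Promoter sequences from RefSeq (GRCm38.p6, 250 bases before to 50 bases after the start site) were at hand for 6 of the 10 genes: Slc26a4, Rhcg, Foxi1, Atp6v1g3, Atp6v1b1 and Atp6v0a4. They were searched on both strands for the forkhead site GTAAACA, and for its shorter core TAAACA, which lies within that site. The core was found in 1 of the 6 promoters, that of Atp6v1b1, against 13.4% of all 32851 promoters of the same length, and there as the full site, which 3.65% of all promoters hold. The match lies on the minus strand and starts 98 bases before the start site. A match of letters is a description and not a binding site. The promoter of Atp6v1b1 is printed for this match, in capitals, and the other 3 belong to the genes whose arrays did not overlap with WT vehicle in a comparison below; they hold no match.
Atp6v1b1, chr6:83742767-83743066, plus strand: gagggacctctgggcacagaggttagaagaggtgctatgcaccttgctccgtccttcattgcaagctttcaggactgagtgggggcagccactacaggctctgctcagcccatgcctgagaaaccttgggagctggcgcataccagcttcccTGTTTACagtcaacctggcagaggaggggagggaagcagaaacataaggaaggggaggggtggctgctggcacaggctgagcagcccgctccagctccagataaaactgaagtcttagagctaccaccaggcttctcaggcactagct
Slc26a4, chr12:31559935-31560234, minus strand: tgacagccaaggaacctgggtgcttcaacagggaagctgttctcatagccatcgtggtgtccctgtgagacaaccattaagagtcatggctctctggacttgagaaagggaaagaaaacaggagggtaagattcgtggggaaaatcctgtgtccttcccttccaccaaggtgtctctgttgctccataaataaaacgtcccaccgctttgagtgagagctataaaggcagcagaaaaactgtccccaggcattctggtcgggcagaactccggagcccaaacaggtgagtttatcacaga
Foxi1, chr11:34208040-34208339, minus strand: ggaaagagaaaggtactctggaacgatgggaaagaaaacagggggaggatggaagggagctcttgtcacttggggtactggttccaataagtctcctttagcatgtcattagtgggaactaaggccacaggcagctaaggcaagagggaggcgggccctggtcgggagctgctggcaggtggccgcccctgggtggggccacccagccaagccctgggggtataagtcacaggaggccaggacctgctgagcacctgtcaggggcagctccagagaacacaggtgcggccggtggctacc
Atp6v0a4, chr6:38124537-38124836, minus strand: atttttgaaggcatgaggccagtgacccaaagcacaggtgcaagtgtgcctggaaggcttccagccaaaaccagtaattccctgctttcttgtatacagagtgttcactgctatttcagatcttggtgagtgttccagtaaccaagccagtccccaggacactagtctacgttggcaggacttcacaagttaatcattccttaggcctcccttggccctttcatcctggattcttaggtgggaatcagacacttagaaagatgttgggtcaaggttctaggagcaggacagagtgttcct

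Values are log2 RMA signals, on which a difference of 1 is a 2-fold difference, and single groups are given as mean ± SD over 4 arrays. No gene's level was compared with that of another gene, apart from the within-array differences described below. The kidney markers Slc34a1 of the proximal tubule, Umod of the thick ascending limb and Aqp2 of the principal cell lay at 12.64 to 13.02, 12.49 to 12.91 and 9.28 to 9.89 over all 12 arrays, where the array medians were 6.15 to 6.29. The lowest value of any of the 10 genes on any array was 7.68. Kl, the targeted gene, was at 9.72 ± 0.07 in KL null and 10.61 ± 0.13 in WT vehicle (log2 fold -0.89, limma adjusted p = 1.75e-05), although it was not established whether the probes lie in the deleted part of the gene. The SD of the log2 values on an array was 2.195 to 2.281 in KL null and 2.166 to 2.248 in WT FGF23. In WT vehicle it was 2.23 to 2.275. The deposited values of the arrays thus differed in spread. Whether an earlier step of RMA had brought the arrays to 1 distribution was not tested. WT FGF23 replicates 1 and 2 and KL null replicates 1 and 2 had the lowest spread of their groups.

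In KL null against WT vehicle, the ammonia transporter gene Rhbg was lower by 0.35 on the log2 scale, and the other 9 genes did not pass the test. In WT FGF23 against WT vehicle none of the 10 passed. The 95% intervals of limma for the 10 genes reached at most 1.52-fold lower (Foxi1) and 1.35-fold higher (Atp6v1g3) in KL null, and at most 1.51-fold lower (Foxi1) and 1.19-fold higher (Slc4a1) after FGF23. A gene passed when limma gave it a p below 0.05 after Benjamini-Hochberg adjustment across the 19938 genes, and every adjusted p of a gene below comes from that fit unless another is named.

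**Figure D1:**
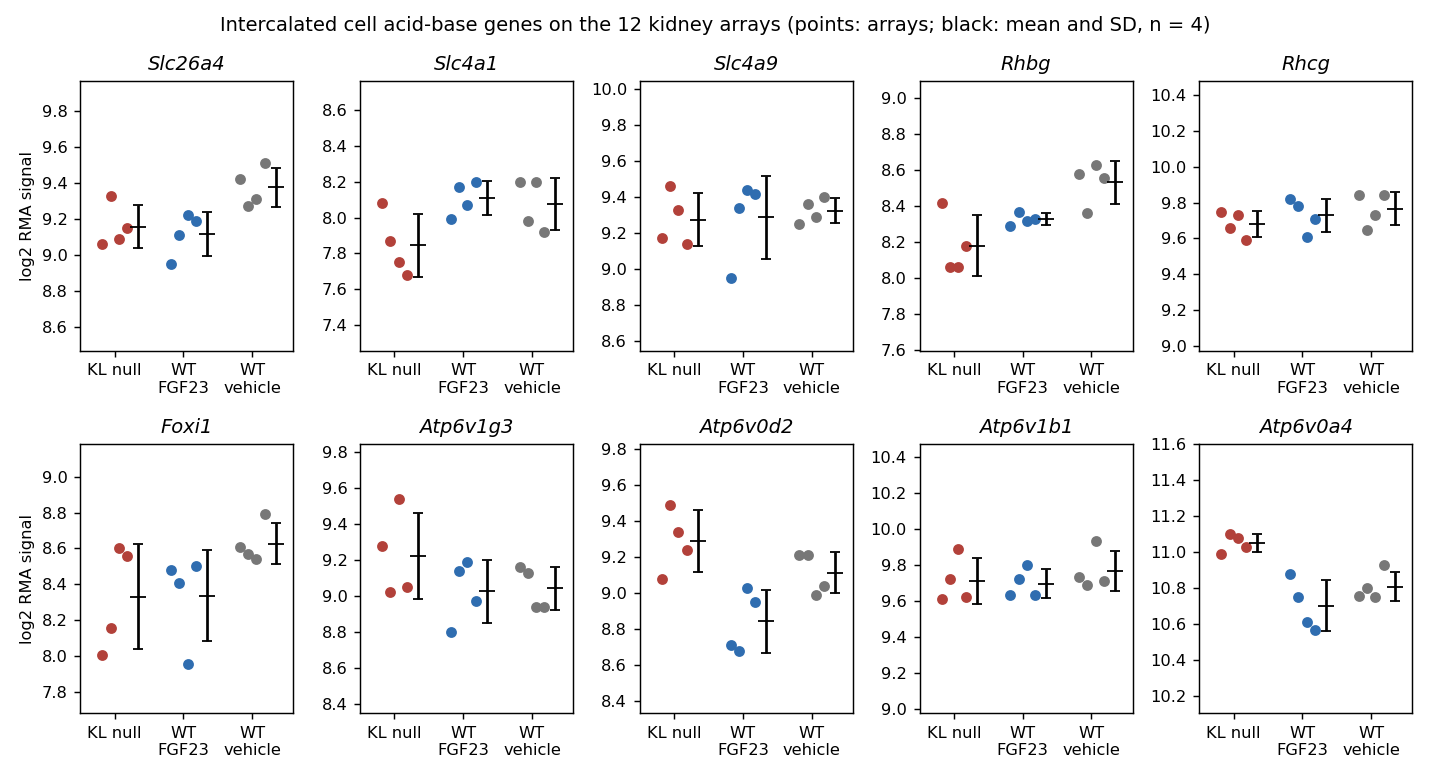
Log2 RMA signal (vertical axis, each panel spanning the same range of 1.5 log2 units) of the 10 genes on the 12 arrays, in KL null, WT FGF23 and WT vehicle kidneys from left to right. Points are arrays and black marks are mean and SD over 4 arrays; Atp6v0a4 sits at 10.99 to 11.10 in KL null, above its 10.75 to 10.93 in WT vehicle, while most other panels overlap.

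The question of the KL null comparison is how the kidney differs without klotho. Of the 10 genes 1 was called, lower in KL null, which is to be read against 8.01% of all genes called (3.58% higher and 4.44% lower). After median centring of the arrays, the split over all genes was 453 higher and 1369 lower, against 713 higher and 885 lower as deposited. By sign alone, 7 of the 10 genes were lower and 3 were higher, and their median log2 fold was -0.07, against 0.03 over all genes. At an unadjusted p below 0.05 there were 4 of the 10 (Slc26a4, Slc4a1, Rhbg and Atp6v0a4), and 21.3% of all genes. The arrays of KL null and WT vehicle did not overlap in 1 of the 10 genes, Atp6v0a4, where KL null was higher, and in 13.8% of all genes (6.35% with KL null higher and 7.44% with KL null lower).

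The FGF23 comparison asks what the injected hormone does to the renal transcripts after 1 hour. In limma 0 of the 10 genes were called, and 0.0853% of all genes were (0.0802% higher and 0.00502% lower). Without adjustment, p fell below 0.05 for 3 of the 10 (Slc26a4, Rhbg and Atp6v0d2) and for 15.4% of all genes, and 0 of the 10 were called in each of the 24 alternative fits. By sign, 9 of the 10 genes were lower and 1 was higher, with a median log2 fold of -0.09, against 0.04 over all genes. Other lists read below also leaned lower: 13 of 14 proximal tubule, 10 of 13 principal cell and 10 of 12 distal tubule genes. So did 14 of 20 genes in both the other intercalated cell list and the other pump subunit list. Lower signs were found in 11 of 18 myeloid, 6 of 13 ammonia and bicarbonate and 1 of 9 erythroid genes. The arrays did not overlap in 2 of the 10, Slc26a4 and Foxi1, both lower after FGF23, and in 7.01% of all genes (4.09% with FGF23 higher and 2.92% with FGF23 lower). Both comparisons share the 4 WT vehicle arrays and are not independent of each other.

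**Figure D2:**
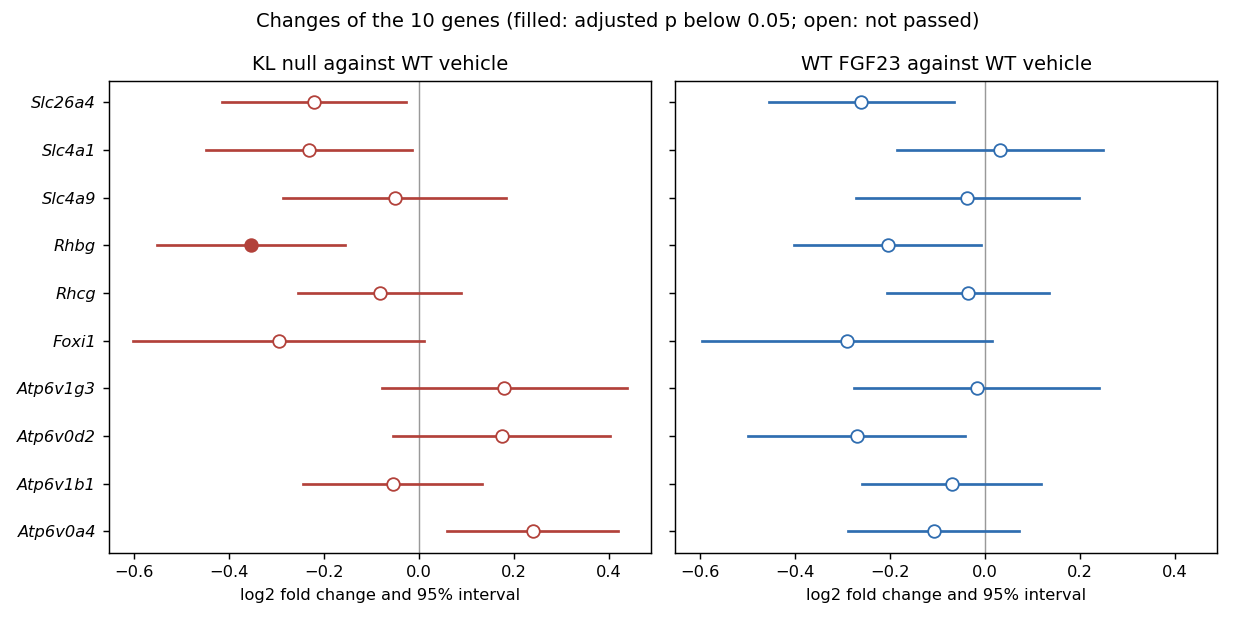
Log2 fold change (horizontal axis) of the 10 genes with limma's 95% interval, for KL null against WT vehicle on the left and WT FGF23 against WT vehicle on the right. Filled points passed the test over all genes and open points did not; Rhbg in KL null, at -0.35, is the only filled point.

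Rhbg encodes the ammonia transporter of the basolateral membrane (Entrez gene 58176). It was at 8.42, 8.06, 8.06 and 8.18 on the KL null arrays, at 8.29, 8.37, 8.32 and 8.33 on the WT FGF23 arrays, and at 8.58, 8.36, 8.63 and 8.56 on the WT vehicle arrays. Of the KL null arrays 3 lay below all 4 vehicle arrays, and replicate 1 lay above WT vehicle replicate 2. The mean was 8.18 ± 0.17 in KL null and 8.53 ± 0.12 in WT vehicle, 1.28-fold lower in linear signal (log2 fold -0.35, SE 0.0926, 95% interval -0.55 to -0.15, adjusted p = 0.0298). In whole kidney, fewer cells of a type and less RNA per cell cannot be told apart. The call was lost when WT vehicle replicate 1, 3 or 4 was left out (adjusted p = 0.0889, 0.0973 and 0.0598), and when KL null replicate 2, 3 or 4 was left out (0.0909, 0.102 and 0.0599). It was also lost in the fit of only the 8 arrays compared (0.0584), and without KL null replicates 1 and 2 the difference was -0.41 (adjusted p = 0.0266). After FGF23 the mean was 8.33 ± 0.03 (log2 fold -0.20, 95% interval -0.40 to -0.01), and this did not pass (adjusted p = 0.312).

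Rhcg encodes the partner transporter of the apical and basolateral membranes (Entrez gene 56315). Its values were 9.75, 9.66, 9.73 and 9.59 in KL null, 9.82, 9.78, 9.61 and 9.71 in WT FGF23, and 9.84, 9.65, 9.73 and 9.84 in WT vehicle. The 3 groups overlapped throughout. The log2 fold was -0.08 in KL null (95% interval -0.25 to 0.09, adjusted p = 0.634) and -0.03 after FGF23 (-0.21 to 0.14, adjusted p = 0.844).

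Whether the transporter genes changed unequally was asked with the difference Rhcg minus Rhbg within an array, which is free of a shift common to both. It was 1.33, 1.60, 1.67 and 1.41 in KL null, 1.53, 1.41, 1.29 and 1.38 in WT FGF23, and 1.26, 1.29, 1.10 and 1.28 in WT vehicle. All 4 KL null values lay above all 4 vehicle values, and the lowest WT FGF23 value equalled the highest vehicle value. The difference was larger by 0.27 in KL null (exact permutation test, two-sided, p = 0.0286, the smallest that 4 against 4 arrays can give) and by 0.17 in WT FGF23 (exact permutation p = 0.0571). Adjusted over the 4 tests of this kind, both had p = 0.0762 and did not pass (exact permutation test). A single test at the smallest p of 0.0286 cannot pass after this adjustment. The adjusted result therefore cannot settle whether the 2 genes changed unequally.

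**Figure D3:**
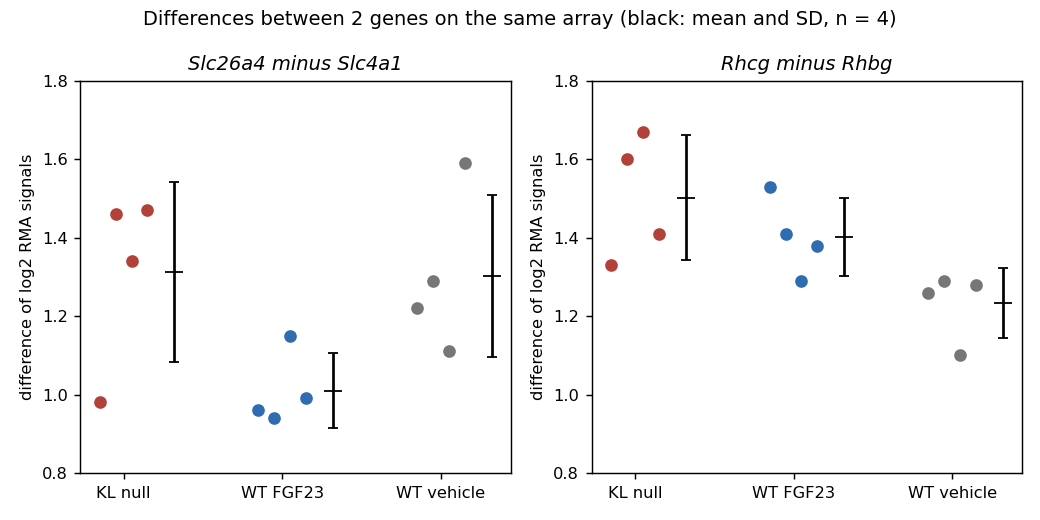
Difference of the log2 RMA signals of 2 genes on the same array (vertical axis), for Slc26a4 minus Slc4a1 on the left and Rhcg minus Rhbg on the right, in KL null, WT FGF23 and WT vehicle. Points are arrays and black marks are mean and SD over 4; for Rhcg minus Rhbg the KL null arrays, 1.33 to 1.67, lie above the vehicle arrays, 1.10 to 1.29.

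Slc26a4 encodes pendrin, the apical chloride-bicarbonate exchanger of type B cells (Entrez gene 23985). It read 9.06, 9.33, 9.09 and 9.15 in KL null, 8.95, 9.11, 9.22 and 9.19 in WT FGF23, and 9.42, 9.27, 9.31 and 9.51 in WT vehicle. All WT FGF23 arrays lay below all vehicle arrays, by a margin of 9.22 against 9.27, while KL null replicate 2 lay among the vehicle arrays. Neither difference passed: the log2 fold was -0.26 after FGF23 (SE 0.0911, 95% interval -0.45 to -0.07, adjusted p = 0.26) and -0.22 in KL null (-0.41 to -0.03, adjusted p = 0.17). When WT FGF23 replicates 1 and 2 were left out, the FGF23 difference was -0.17, and after a further quantile normalization it was -0.20.

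Slc4a1 encodes AE1, the basolateral exchanger of type A cells, which is also band 3 of red blood cells (Entrez gene 20533). It was at 8.08, 7.87, 7.75 and 7.68 in KL null, at 7.99, 8.17, 8.07 and 8.20 in WT FGF23, and at 8.20, 7.98, 8.20 and 7.92 in WT vehicle. Of the KL null arrays 3 lay below every wild-type array, and replicate 1 lay among them. The log2 fold in KL null was -0.23 (95% interval -0.45 to -0.01) and did not pass (adjusted p = 0.203), except with array quality weights (-0.31, adjusted p = 0.0306). After FGF23 it was 0.03 (-0.18 to 0.25, adjusted p = 0.891), with the sign turned when arrays were centred on their median (-0.02).

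Because AE1 is shared with red cells, 19 erythroid genes were read beside it, of which 9 were measured here. All of these but Alas2 and Slc25a37 had group means below the array medians of 6.15 to 6.29. They can thus say little of red cell content, which was not tested. In limma 0 of the 9 were called in KL null, beside 8.01% of all genes, and 0 after FGF23. An unadjusted p below 0.05 was reached by 1 in each comparison, beside 21.3% of all genes in KL null and 15.4% after FGF23. In KL null 1 was called with array quality weights, in the fit of only the 8 arrays compared, and without KL null replicate 1, WT FGF23 replicate 1, KL null replicates 1 and 2 or WT FGF23 replicates 1 and 2. Their summed linear signal was 480 to 627 in KL null, 508 to 590 in WT FGF23 and 500 to 541 in WT vehicle. Rhag, the Rhesus-associated glycoprotein of red cells, was at 3.33 ± 0.24 in KL null, 3.39 ± 0.17 in WT FGF23 and 3.24 ± 0.22 in WT vehicle (SD, n = 4 each). The haemoglobin genes were not analysed here.

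Slc4a9 encodes AE4, the basolateral transporter of type B cells (Entrez gene 240215). Its values were 9.17, 9.46, 9.33 and 9.14 in KL null, 8.95, 9.34, 9.44 and 9.42 in WT FGF23, and 9.25, 9.36, 9.29 and 9.40 in WT vehicle. WT FGF23 replicate 1 was the lowest of the 12 arrays, as it was for Slc26a4, and the groups overlapped. The log2 fold was -0.05 in KL null (95% interval -0.28 to 0.18, adjusted p = 0.865) and -0.04 after FGF23 (-0.27 to 0.20, adjusted p = 0.883), and both turned positive after quantile normalization (0.0045 and 0.02).

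The type B and type A exchanger genes were compared within arrays as Slc26a4 minus Slc4a1. The difference was 0.98, 1.46, 1.34 and 1.47 in KL null, 0.96, 0.94, 1.15 and 0.99 in WT FGF23, and 1.22, 1.29, 1.11 and 1.59 in WT vehicle. KL null replicate 1 lay below the vehicle range, and KL null replicates 2, 3 and 4 lay inside it. In WT FGF23 only replicate 3 reached into the vehicle range. The mean changed by 0.01 in KL null (exact permutation p = 1) and by -0.29 in WT FGF23 (exact permutation p = 0.0571, adjusted over the 4 tests 0.0762), and neither passed. The limit of the adjustment given for Rhcg minus Rhbg holds here too.

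Foxi1 encodes the forkhead factor of intercalated cells (Entrez gene 14233). It was at 8.01, 8.16, 8.60 and 8.56 in KL null, at 8.48, 8.41, 7.96 and 8.50 in WT FGF23, and at 8.61, 8.57, 8.54 and 8.79 in WT vehicle. The KL null arrays fell apart into 2 low values, in replicates 1 and 2, and 2 values inside the vehicle range. After FGF23 all 4 arrays lay below vehicle, and replicate 3 lay far below the rest of its group. The means differed by -0.29 on the log2 scale in both comparisons (95% interval -0.60 to 0.01 in KL null, adjusted p = 0.254, and -0.60 to 0.02 after FGF23, adjusted p = 0.344). Without KL null replicates 1 and 2, the KL null arrays of lower spread, the difference was -0.05 (adjusted p = 0.918), without replicate 1 alone it was -0.19, and without WT FGF23 replicate 3 the FGF23 difference was -0.16.

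Atp6v0a4 encodes the a4 subunit of the membrane sector of the proton pump, whose human counterpart is mutated in distal renal tubular acidosis (Entrez gene 140494). It read 10.99, 11.10, 11.08 and 11.03 in KL null, 10.88, 10.75, 10.61 and 10.57 in WT FGF23, and 10.76, 10.80, 10.75 and 10.93 in WT vehicle. The 4 KL null arrays lay above all 8 wild-type arrays. The KL null mean of 11.05 ± 0.05 against 10.81 ± 0.08 in WT vehicle gave a log2 fold of 0.24 (SE 0.0843, 95% interval 0.06 to 0.42), short of the threshold (adjusted p = 0.0993). It passed in 3 of 24 alternatives, after quantile normalization (0.34, adjusted p = 0.0218), with array quality weights (0.27, adjusted p = 0.0271) and with trended and robust moderation (0.24, adjusted p = 0.0437). After FGF23 the log2 fold was -0.11 (-0.29 to 0.07, adjusted p = 0.528).

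Atp6v0d2 encodes the d2 subunit of the same sector, which macrophages and osteoclasts also express (Entrez gene 242341). It was at 9.08, 9.49, 9.34 and 9.24 in KL null, at 8.71, 8.68, 9.03 and 8.95 in WT FGF23, and at 9.21, 9.21, 8.99 and 9.04 in WT vehicle. KL null reached above vehicle on 3 arrays, and WT FGF23 below it on 3. The log2 fold was 0.18 in KL null (95% interval -0.05 to 0.40, adjusted p = 0.389) and -0.27 after FGF23 (-0.50 to -0.04, adjusted p = 0.283), and neither passed. Without KL null replicate 2 the KL null difference was 0.11, and without WT FGF23 replicates 1 and 2 the FGF23 difference was -0.12.

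Markers of myeloid cells and osteoclasts were read beside Atp6v0d2. Of 18 such genes 11 rose and 2 fell in KL null, beside 3.58% of all genes called higher and 4.44% called lower. The summed signal was 3243 to 6326 in KL null, against 2177 to 3213 in WT FGF23 and 2381 to 3498 in WT vehicle. The largest increase was in the macrophage elastase Mmp12, at 9.37 ± 1.07 in KL null and 6.22 ± 0.20 in WT vehicle (adjusted p = 8.75e-05), and the largest decrease was in the acid phosphatase Acp5, at 8.08 ± 0.16 in KL null and 8.76 ± 0.09 in WT vehicle (adjusted p = 0.000373). Csf1r, the receptor of the macrophage growth factor CSF1, was the other that fell, named after its value was seen. Without WT vehicle replicate 1 or KL null replicate 3 the list had 8 calls in place of 13, and in an unmoderated linear model it had 6. The part of these cells in the Atp6v0d2 values was not tested.

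Atp6v1g3 encodes the G3 subunit and Atp6v1b1 the B1 subunit of the cytosolic sector (Entrez genes 338375 and 110935). Atp6v1g3 read 9.28, 9.02, 9.54 and 9.05 in KL null, 8.80, 9.14, 9.19 and 8.97 in WT FGF23, and 9.16, 9.13, 8.94 and 8.94 in WT vehicle. Its groups overlapped, with KL null replicate 3 as the highest of the 12 arrays. The log2 fold was 0.18 in KL null (95% interval -0.08 to 0.44, adjusted p = 0.446) and -0.02 after FGF23 (-0.27 to 0.24, adjusted p = 0.954). Without KL null replicate 3 the KL null difference was 0.07 (adjusted p = 0.798).

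Atp6v1b1 was at 9.61, 9.72, 9.89 and 9.62 in KL null, at 9.63, 9.72, 9.80 and 9.63 in WT FGF23, and at 9.73, 9.69, 9.93 and 9.71 in WT vehicle. Replicate 3 was the highest array of every group, and the ranges of the 3 groups overlapped. The log2 fold was -0.06 in KL null (95% interval -0.24 to 0.13, adjusted p = 0.802) and -0.07 after FGF23 (-0.26 to 0.12, adjusted p = 0.704). Among the 4 pump genes, 3 thus had a positive sign in KL null (Atp6v1g3, Atp6v0d2 and Atp6v0a4), with a median log2 fold of 0.18, and Atp6v1b1 had a negative sign that turned to 0.00073 after quantile normalization. After FGF23 all 4 had a negative sign, with a median of -0.09, and that of Atp6v1g3 turned positive in 7 of 24 alternatives, among them quantile normalization.

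The other subunit genes of the proton pump, without a choice by how widely they are expressed, give the setting for these 4. Of 21 such genes 20 were measured, and in KL null 3 fell, 0 rose and 17 did not pass, beside 4.44% of all genes called lower. The 3 were all of the membrane sector: Atp6v0e2 was at 7.68 ± 0.19 in KL null and 8.16 ± 0.10 in WT vehicle (log2 fold -0.49, adjusted p = 0.023), the log2 fold of Atp6v0a2 was -0.42 (adjusted p = 0.0132), and that of Atp6v0b was -0.38 (adjusted p = 0.023). By sign 18 of the 20 were lower, with a median of -0.14, against 0.03 over all genes. The summed signal of the 20 was 21389 to 22005 in KL null, 22686 to 23590 in WT FGF23 and 23735 to 24644 in WT vehicle. No call was left without WT vehicle replicate 1, without WT vehicle replicate 3 or without KL null replicate 3, and 1 was made without KL null replicates 1 and 2. After FGF23 0 of the 20 were called in limma, with 3 at an unadjusted p below 0.05, beside 15.4% of all genes.

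Proximal tubule genes were read beside these subunits. Of 14 proximal tubule genes 9 fell and 0 rose in KL null, with a median log2 fold of -0.39, beside 4.44% of all genes called lower. The summed signal was 51790 to 57109 in KL null, 65993 to 69344 in WT FGF23 and 70694 to 75795 in WT vehicle. The largest decrease was in Kap, an androgen-regulated gene of the proximal tubule, at 11.70 ± 0.31 in KL null and 13.19 ± 0.10 in WT vehicle (log2 fold -1.50, adjusted p = 1.05e-05). The part of the proximal tubule in the subunit values was not tested. After FGF23 0 of the 14 were called, with 1 at an unadjusted p below 0.05, beside 15.4% of all genes.

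**Figure D4:**
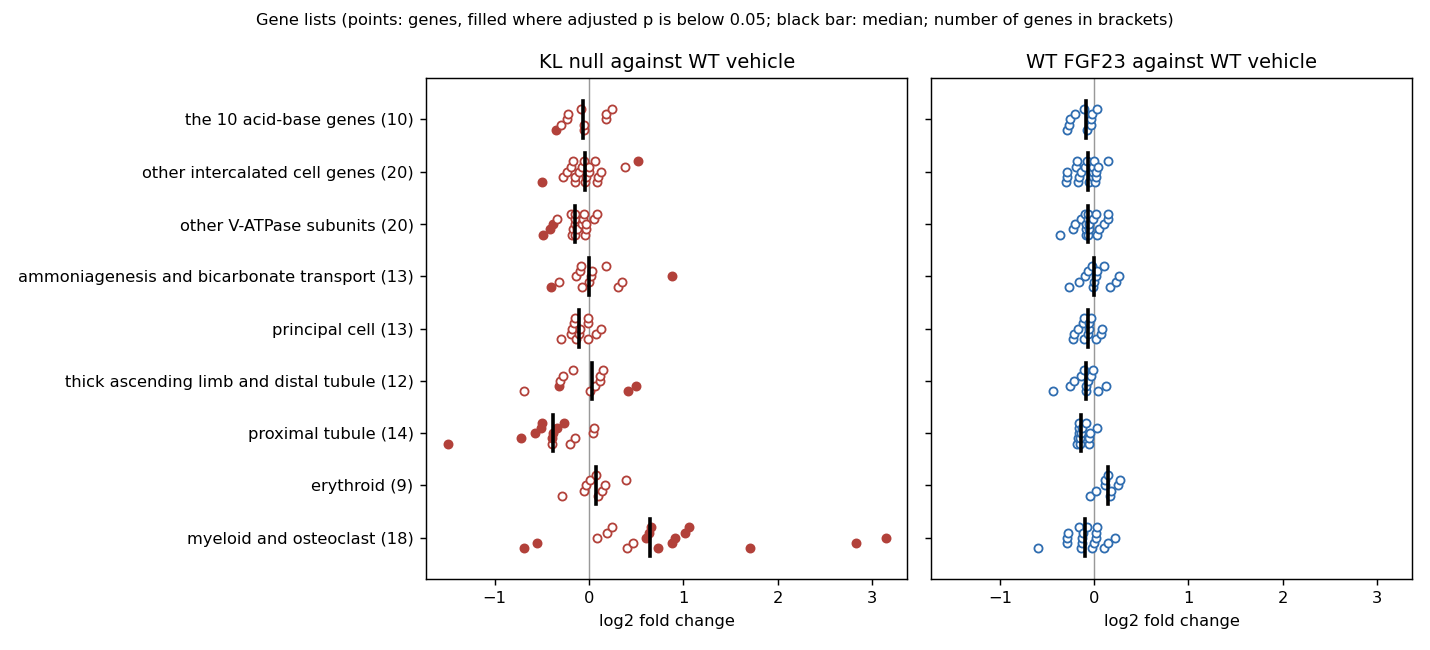
Log2 fold change (horizontal axis) of the genes of 9 lists (rows), for KL null against WT vehicle on the left and WT FGF23 against WT vehicle on the right. Points are genes, filled where the adjusted p is below 0.05, and black bars are list medians; in KL null the median of the 10 acid-base genes is -0.07, that of proximal tubule genes -0.39 and that of myeloid and osteoclast genes 0.65.

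Of 21 further intercalated cell genes 20 were measured, and in KL null 1 rose, 1 fell and 18 did not pass (median log2 fold -0.05), beside 8.01% of all genes called. P2ry14, the receptor for UDP-glucose on type A cells, was at 7.10 ± 0.16 in KL null and 6.58 ± 0.23 in WT vehicle (log2 fold 0.52, adjusted p = 0.0179). Insrr, a receptor kinase that senses alkaline pH and is found on type B cells, was at 7.04 ± 0.16 in KL null and 7.55 ± 0.13 in WT vehicle (log2 fold -0.50, adjusted p = 0.00516). The count of calls in this list was 1 in place of 2 without WT vehicle replicate 1 or 3 and without KL null replicate 2 or 3. The carbonic anhydrase genes Car2 and Car12 had log2 folds of -0.19 and -0.28 and did not pass (adjusted p = 0.242 and 0.0551). After FGF23 0 of the 20 were called in limma, with 1 at an unadjusted p below 0.05, beside 15.4% of all genes, and the median was -0.07.

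Principal cells, the sodium and water transporting neighbours of intercalated cells, gave 0 calls among 13 genes in KL null, beside 8.01% of all genes called. There 0 were at an unadjusted p below 0.05, beside 21.3% of all genes, and the median was -0.10. After FGF23 they gave 0 calls (1 at an unadjusted p below 0.05, beside 15.4% of all genes, median -0.06). Their summed signal was 6986 to 7851 in KL null, 7211 to 7598 in WT FGF23 and 7359 to 8185 in WT vehicle. That of the 10 acid-base genes was 6788 to 7414 in KL null, 6359 to 6579 in WT FGF23 and 6800 to 7190 in WT vehicle. The WT FGF23 sums of the acid-base genes thus lay below the vehicle sums. So did those of the proximal tubule list, the other intercalated cell list (9171 to 9793 against 10203 to 10770) and the other pump subunits. The sums overlapped in the principal cell, erythroid and myeloid lists. They also overlapped for thick ascending limb and convoluted tubule genes (23885 to 29409 against 27424 to 28327) and for ammonia and bicarbonate genes (20951 to 24973 against 22447 to 24077). A linear sum weighs the brightest genes most, and differences of sums were not tested. The SD of an array was 2.166 to 2.248 in WT FGF23 and 2.23 to 2.275 in WT vehicle. The part of this spread in the sums was not tested, and no sum over all genes was taken. The distal list of 12 thick ascending limb and convoluted tubule genes had 2 increases and 1 decrease in KL null, beside 8.01% of all genes called. After FGF23 it had 0 calls (2 at an unadjusted p below 0.05, beside 15.4% of all genes). The magnesium channel Trpm6 (log2 fold 0.50, adjusted p = 0.00836) and the claudin Cldn16 (0.42, 0.0211) rose and the cotransporter Slc12a3 fell (-0.32, 0.0469). The count of calls in this list was 1 in place of 3 without WT vehicle replicate 3, KL null replicate 3 or KL null replicate 4 and without KL null replicates 1 and 2, and 5 with array quality weights.

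Upstream of the collecting duct, the proximal tubule makes ammonia from glutamine, and 16 genes of ammonia production and bicarbonate transport were read for it, 13 of them measured. In KL null 1 rose, 1 fell and 11 did not pass, beside 8.01% of all genes called. Slc38a3, the glutamine transporter SNAT3 of the proximal tubule, was 1.84-fold higher, at 10.30 ± 0.34 in KL null and 9.42 ± 0.30 in WT vehicle (log2 fold 0.88, SE 0.203, adjusted p = 0.0151), and all KL null arrays lay above all vehicle arrays. Ptk2b, the kinase Pyk2, was at 8.87 ± 0.09 in KL null and 9.27 ± 0.13 in WT vehicle (log2 fold -0.40, adjusted p = 0.0179). The enzymes of the pathway did not pass, with log2 folds of -0.08 for glutamate dehydrogenase, Glud1 (adjusted p = 0.682), and -0.0050 for the gluconeogenic Pck1 (adjusted p = 0.993). Without WT vehicle replicate 1 there were 0 calls in this list, and 1 without WT vehicle replicate 3 or KL null replicate 2 or 4, while 4 were made without KL null replicate 1 or with array quality weights, and 1 in an unmoderated linear model. After FGF23 0 of the 13 were called in limma, with 2 at an unadjusted p below 0.05, beside 15.4% of all genes.

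The 10 genes did not vary together from array to array within the groups. After the group means were taken off, 19 of the 45 pairs of genes had a positive Pearson correlation over the 12 arrays, with a median of -0.10. The closest pair was Slc26a4 with Slc4a9, both of type B cells (r = 0.74), where WT FGF23 replicate 1 is the lowest array for both, and the most opposed pair was Rhbg with Atp6v0d2 (r = -0.65). Each gene's correlation with the mean of the other 9 ran from -0.39 (Atp6v0a4) to 0.38 (Slc4a9). The genes whose group-centred values most resembled the mean of the 10 were Dcp1b (r = 0.92), Gabre (0.89), Hoxa9 (0.88), Cep162 (0.87) and Npr3 (0.87), ranked over 17199 genes and 12 arrays. These correlations are descriptions: the points share arrays and their spread. The genes named for their likeness were picked as the highest of 17199 over only 12 arrays. Whether unrelated profiles would give correlations as high in such a ranking was not tested. The group-centred mean of the 10 that they were ranked against ran only from -0.067 to 0.067.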

How the data were processed

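Expression was measured in whole kidney on 12 arrays, 4 per group. The values deposited by the authors are log2 signals. The submitters' processing notes name RMA and Partek 6.2, without settings. RMA compresses changes of dim probe sets. Of 28853 probe sets 21789 had 1 gene symbol, 1621 several and 5443 none in the platform annotation; the highest-mean probe set stood for each of 19938 genes, and 0 symbols needed an update through RefSeq.

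The linear models of limma 3.58.1 ran under R 4.3.3 (two-sided moderated test, 3 group means over 12 arrays, 9 residual degrees of freedom), checked on simulated data. Intervals are not adjusted. Within-array differences were tested by exact permutation over arrays. The number of arrays limits the precision.

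The members and the 8 further lists were chosen with earlier results of these data known. Named genes are the 10 members, the largest called increase and decrease of each list, and the 5 genes of most similar profile; Rhag, Car2, Car12, Glud1, Pck1 and the other called subunit, distal tubule and myeloid genes were named after their values were seen. The 24 alternatives changed the normalization, filter, moderation, weights, covariates, probe set choice and the arrays in the fit. The HBEGF arm of the protocol was not analysed here. Python 3.11.15, pandas 2.3.3 and matplotlib 3.10.9 made tables and figures.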

Additional observations from a re-analysis of the deposited data

Results flagged for a closer look

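In 3 of 36 sets of 4 arrays (10 genes and 2 within-array differences, in 3 groups), a single array stood apart from the other 3 by Dixon's criterion, which chance meets in about 1 of 20 sets. Foxi1 was at 7.96 in WT FGF23 replicate 3, against 8.41 to 8.50 in the other 3 arrays of the group. Atp6v1b1 was at 9.93 in WT vehicle replicate 3, against 9.69 to 9.73 in the others. The difference Rhcg minus Rhbg was 1.10 in WT vehicle replicate 3, against 1.26 to 1.29.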

How the results depend on the processing

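The number of the 10 genes called in KL null was 1 as reported, 2 after quantile normalization, 3 with array quality weights, 2 with trended and robust moderation, 0 in the fit of only the 8 arrays compared, and between 0 and 1 when each array was left out; the cause was not tested. Rhbg kept its sign in all 24 alternatives (-0.43 to -0.31, adjusted p = 0.00312 to 0.102) and passed in 17. Several of these cannot move its log2 fold, such as leaving out WT FGF23 arrays or changing the moderation or the probe set. With each array left out it passed in 6 of 12, among them every fit without a WT FGF23 array. After FGF23 the number was 0 in all 24, leaving out each array included (0 to 0). Over all genes the calls ran from 828 to 2852 in KL null and from 2 to 19 after FGF23, against 1598 and 17.

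Signs turned only for small differences that did not pass. In KL null these were Slc4a9 (0.0045) and Atp6v1b1 (0.00073), both after quantile normalization. After FGF23 they were, after quantile normalization, Slc4a9 (0.0245), Rhcg (0.0358) and Atp6v1g3 (0.0327), and with array spread as a covariate Slc4a1 (-0.0157), Slc4a9 (0.0387) and Atp6v1g3 (0.0194). Slc4a1 also turned with arrays centred on their median (-0.0175), Slc4a9 with array quality weights (0.0331), and Slc4a9 (0.105) and Atp6v1g3 (0.0375) without WT FGF23 replicates 1 and 2. With each array left out, the FGF23 differences ran from -0.0192 to 0.0742 for Slc4a1, from -0.0883 to 0.075 for Slc4a9, from -0.0733 to 0.005 for Rhcg and from -0.0725 to 0.0575 for Atp6v1g3. The within-array difference Slc26a4 minus Slc4a1 ran from -0.0542 to 0.121 in KL null and from -0.36 to -0.20 after FGF23, and Rhcg minus Rhbg from 0.21 to 0.33 and from 0.13 to 0.21.

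Same-numbered arrays of KL null and WT FGF23 had correlations of their deviations of 0.143 to 0.259, all above 0.1, while those of KL null and WT vehicle ran from -0.137 to 0.169 and those of WT FGF23 and WT vehicle from -0.216 to 0.191. The numbers were therefore not taken as pairs in the 2 comparisons with WT vehicle. With the replicate block Rhbg had an adjusted p of 0.0375, the count of called members stayed at 1 and 0, and all genes called were 1548 in KL null and 6 after FGF23. With 4 arrays per group, the bounds of the 95% intervals given above limit what can be said of the 9 genes that were not called.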
